A study of Mus musculus with 6 samples.

Results

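The genes described here are 42 of the 54393 genes in the deposited hippocampus table: 22 neuropeptide precursors with the peptide-binding protein Crhbp, 5 members of the granin family and 14 neuropeptide receptors. They were taken by gene name, and all 42 were found. The table holds 3 libraries from miR-301a knockout mice (miR-301a-/-) and 3 libraries from wild type mice. Every mouse was untreated and of the C57BL/6 strain, and the series gives an age of 6 to 8 weeks for both genotypes. The libraries are called by the codes of their titles, knockout 1-1, 2-2 and 3-1, and wild type 1-1, 2-1 and 2-2. The codes are not explained, how the knockout allele was made was not given in the sources used here, and no label ties a library to an animal of its own, so p-values measure the spread between libraries, which may be technical.

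Neuropeptides are made as long precursor proteins, packed into dense-core vesicles and cut by proteases into short active peptides. Granins are acidic proteins of the same vesicles. Once released, the peptides act on receptors coupled to G proteins. In the hippocampus, Sst, Npy, Vip, Cck and Penk are best known from interneurons, whereas Trh, Avp, Oxt, Hcrt and Pmch are best known as peptides of hypothalamic neurons. Since the RNA came from whole tissue, fewer cells of a type and less RNA per cell cannot be told apart in any value below.

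The microRNA removed in the knockout pairs with messengers through its seed, bases 2 to 8. It is shown with other family members that carry the same seed, in capitals, because a messenger holding the matching letters is a possible target of all of them (sequences from RefSeq, GRCm38.p6).
miR-301a-3p: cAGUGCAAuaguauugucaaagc
miR-130a-3p: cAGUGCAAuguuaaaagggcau
miR-130b-3p: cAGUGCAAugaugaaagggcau

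The seed's match in a messenger reads TTGCACT. In the longest annotated 3' UTR it was present in 3 of the 42 genes (7.14%), against 1610 of 12768 tested genes with an annotated 3' UTR (12.6%). All 3 are receptor genes: Npy2r for neuropeptide Y, Adcyap1r1 for the peptide PACAP, and Oprk1, the kappa opioid receptor. None of the 28 precursor and granin genes held the heptamer. The 42 genes have short 3' UTRs, with a median of 492 nt against 1420 nt over the tested genes. The shorter hexamer TGCACT, which lies within the heptamer, was in 6 of the 42 (14.3%), against 37.4% of the tested genes. The windows around the 3 heptamers, written as DNA with the match in capitals, start 12 bases before it.
Npy2r: atgttaaaatagTTGCACTtctctggatgc
Adcyap1r1: cagttgatccccTTGCACTttggacacttc
Oprk1: acattgccagtcTTGCACTctcatgtggca

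Npy2r had 27.4, 18.5 and 18.5 units in knockout 1-1, 2-2 and 3-1, against 19.2, 15.5 and 16.6 in wild type 1-1, 2-1 and 2-2. Units here and below are those of the deposited table, read as FPKM, that is, reads per length of transcript and per depth of library. Adcyap1r1 had 37.8, 50.2 and 47.9 in the knockout libraries, against 44.7, 50.7 and 38.1 in the wild type libraries. Oprk1 stayed under 1 unit throughout, with 0.297 to 0.678 in the knockout libraries and 0.296 to 0.344 in the wild type libraries. For all 3 the ranges of the genotypes overlapped. The targeted locus gives no check of the labels: Mir301, the microRNA's own gene (chr11:87113004-87113089, plus strand), was listed at 0 in all 6 libraries of this poly(A) RNA. Its host gene Ska2 averaged 5.59 ± 0.50 in the knockout and 5.86 ± 0.20 in the wild type libraries (SD, n = 3 each).

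Promoter letters, which the choice of genes did not use, were read beside the values. The cAMP response element TGACGTCA, a site known from the promoter of the somatostatin gene, was found on either strand within 250 bases before to 50 bases after the start in 5 of the 36 genes with a RefSeq promoter entry (13.9%), against 549 of 27025 genes (2.03%). The shorter core TGACG, which lies within the full element, was present in 17 of the 36 (47.2%), against 23.0% of all genes. The TATA letters TATAAA, read on the gene's strand, were in 7 of the 36 (19.4%), against 9.77%. Such a match is a description of letters and not evidence of binding. The 5 elements are shown in capitals because 2 of their genes, Cartpt and Sstr2, were among the genes that stood out in knockout 2-2 below. Sst, Scg2 and Chgb did not pass the mark of 1.5 times used there, though Scg2 was highest in knockout 2-2. Penk, Crh, Grp, Vgf, Sstr1 and Oprk1 had no promoter entry and were not read. Of these, Crh also stood out in knockout 2-2. All windows are on GRCm38.p6 and written on the gene's strand.
Sst, chr16:23890869-23890908, minus strand: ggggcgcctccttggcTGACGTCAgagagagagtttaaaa
Cartpt, chr13:99900772-99900811, minus strand: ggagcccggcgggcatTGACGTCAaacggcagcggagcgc
Scg2, chr1:79440071-79440110, minus strand: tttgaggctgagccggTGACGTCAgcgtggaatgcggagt
Chgb, chr2:132781554-132781593, plus strand: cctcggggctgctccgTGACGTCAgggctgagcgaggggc
Sstr2, chr11:113619253-113619292, plus strand: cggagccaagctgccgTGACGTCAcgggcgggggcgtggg

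Depth was not given by the table. Read from the step between low values, and in units of 1000000 reads, it was 27.0, 16.9 and 19.6 in knockout 1-1, 2-2 and 3-1, against 28.1, 20.1 and 20.3 in wild type 1-1, 2-1 and 2-2. These depths assume that a value counts reads per kilobase of exon and per 1000000 reads. Mitochondrial genes held 16.1% to 22.8% of the summed values. A pair of knockout libraries stood apart most for the peptide genes, and the results are given with and without them. Of the 34 peptide genes that passed the filter for testing (at 1 unit or above in 3 or more libraries), knockout 2-2 held the highest value for 15 (44.1%), against 19.1% of all 14708 tested genes. Knockout 1-1 held the lowest value for 16 of the 34 (47.1%), against 18.2% of all tested genes. By comparison, knockout 3-1 was highest for 3 and lowest for 2, against 14.4% and 12.5% of all tested genes. Wild type 1-1 was highest for 2 and lowest for 1 (17.8% and 14.8% of all), and wild type 2-2 for 2 and 2 (15.9% and 15.2%). Wild type 2-1 was highest for 6 (15.2% of all) and lowest for 10 (29.4%, against 16.4% of all).

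None of the 34 tested genes passed the test of knockout against wild type. With limma on log2(value + 1), 0 of the 34 were called at an adjusted p under 0.05, where 16 of the 14708 tested genes (0.109%) were called, 8 higher and 8 lower. At an unadjusted p under 0.05 the count was also 0 of 34, against 5.72% of all tested genes. Under 6 of 12 alternatives that count was 1 or 2, still with no call: Nts with the replicate block, Pdyn without knockout 1-1, Cckbr without knockout 2-2, Nts and Vip without wild type 1-1, Oprl1 without wild type 2-1, and Grp and Nmb without wild type 2-2. On the log2 scale, 21 of the 34 genes had a fold change above 0 and 13 below, with a median of 0.03, against a median of -0.0038 over all tested genes. The remaining 8 genes, Trh, Avp, Oxt, Hcrt, Pmch, Gal, Oprk1 and Oprm1, were too low for the filter. With the filter dropped, these too had no call, with adjusted p-values of 0.886 to 0.999 in limma. In the authors' deposited table, all 42 genes had an adjusted p of 1, and 35 had an unadjusted p of exactly 1. Of the 42 genes, 2 had an unadjusted p under 0.05 in the authors' deposited table, namely Trh at 0.0311 and Avp at 0.0398, whose values are taken up with knockout 2-2 below.

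**Figure D1:**
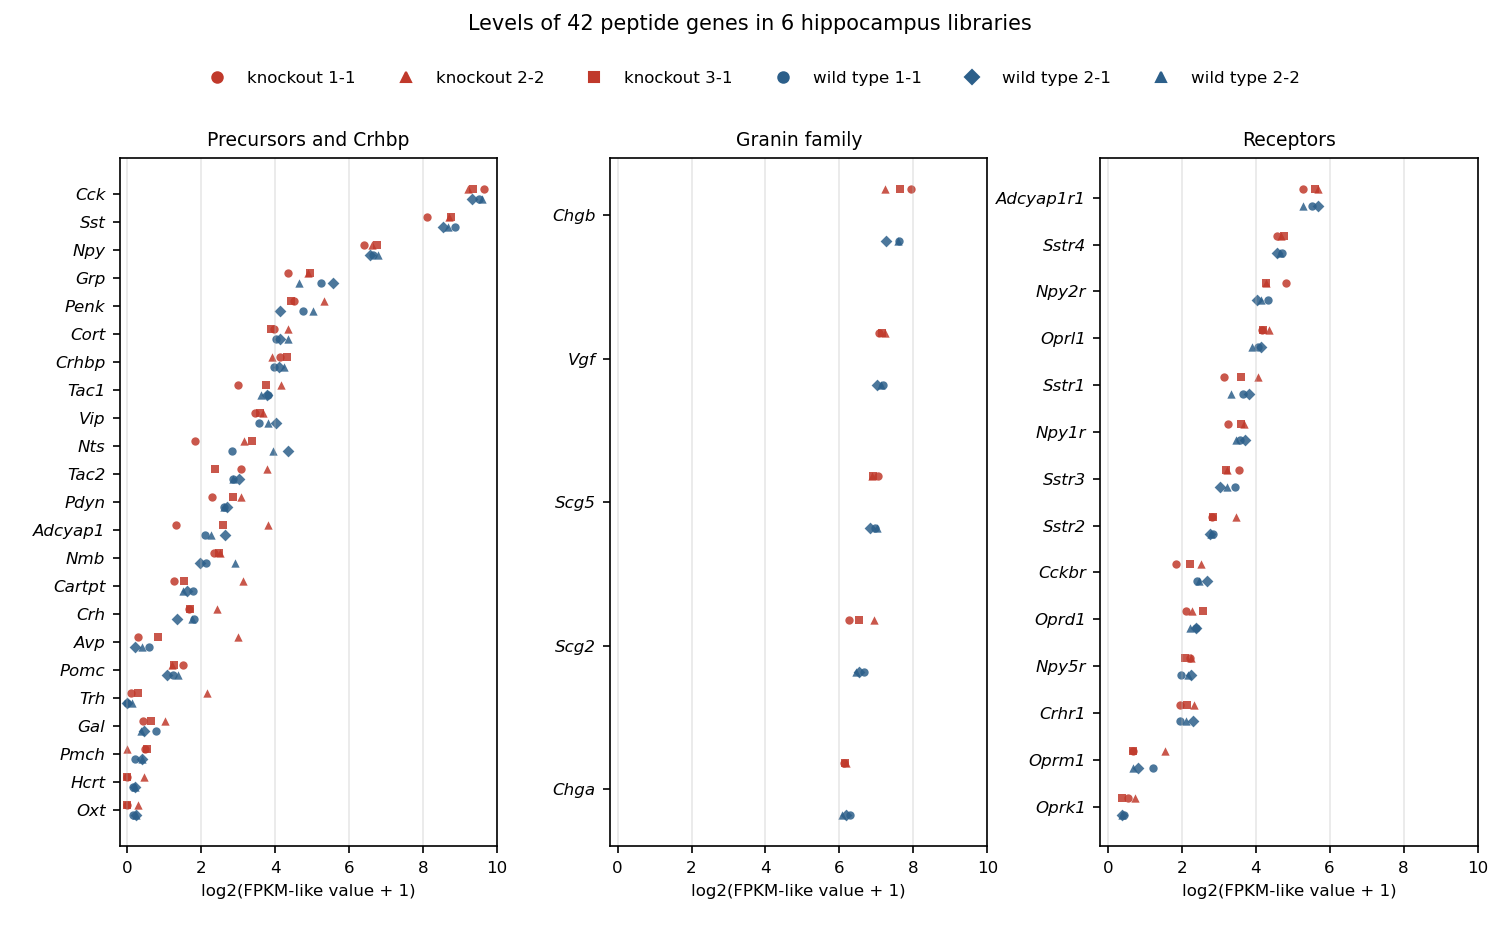
Level of each of the 42 peptide genes in each library, as log2(value + 1), grouped by role and ordered by mean level. Red symbols are knockout and blue symbols wild type libraries, and color and shape together give the library. A shape used in both colors stands for the same code and does not mark a known pair. Cck and Sst lead in all 6 libraries, the 5 granin genes lie close together, and the red triangles of knockout 2-2 lie to the right for Trh, Avp, Cartpt and Adcyap1.

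Cck, Sst and Npy were the 3 most abundant precursors in both genotypes, and none of them was called. Cck, the precursor of cholecystokinin, had 794, 589 and 648 units in knockout 1-1, 2-2 and 3-1, against 724, 638 and 767 in wild type 1-1, 2-1 and 2-2. It was the most abundant of the 42 genes in both genotypes, and the wild type values lay inside the knockout range. Sst, which encodes somatostatin, an inhibitory peptide of dendrite-targeting interneurons, had 272, 417 and 433 in the knockout libraries, against 463, 369 and 407 in the wild type libraries. Knockout 1-1 alone was low, and the other 5 libraries lay between 369 and 463. Npy, which encodes neuropeptide Y, averaged 95.7 ± 11.3 in the knockout and 101 ± 7.44 in the wild type libraries (SD, n = 3 each). The log2 fold changes were -0.07 for Cck (95% interval -0.38 to 0.23), -0.17 for Sst (-0.61 to 0.27) and -0.07 for Npy (-0.31 to 0.16), which leaves room for a change of either sign. As a share of the summed values of the 23 genes in the precursor group, Cck took 62.8%, 45.2% and 48.7% in knockout 1-1, 2-2 and 3-1, against 50.5%, 50.2% and 53.2% in wild type 1-1, 2-1 and 2-2. The share of Sst was 21.5% in knockout 1-1 and 28.2% to 32.5% in the other 5 libraries.

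Other precursors of interneurons were at a lower level and likewise without a call. Vip, whose peptide marks interneurons that inhibit other interneurons, had 9.90, 11.7 and 10.9 in the knockout libraries, against 10.8, 15.1 and 12.9 in the wild type libraries. The genotypes overlapped only between 10.8 and 11.7, and the log2 fold change was -0.23 (95% interval -0.53 to 0.07). It was -0.12 without wild type 2-1 and -0.34 without wild type 1-1. Cort, which encodes cortistatin, a relative of somatostatin, averaged 15.97 ± 2.92 in the knockout and 16.9 ± 2.04 in the wild type libraries (SD, n = 3 each). Crhbp, whose product binds and holds corticotropin-releasing hormone, averaged 16.5 ± 2.29 in the knockout and 16.1 ± 1.63 in the wild type libraries. Penk, the precursor of the enkephalins, had 21.6, 39.3 and 20.4 in the knockout libraries, against 26.1, 16.6 and 31.3 in the wild type libraries. Its values scattered in both genotypes, and 14.3% of its exonic length overlaps a transcript on the opposite strand, which the table may not separate.

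Nts, the precursor of neurotensin (chr10:102481756-102490486, minus strand, GRCm38), had the largest fold change of the tested members. Its values were 2.57, 7.83 and 9.41 in knockout 1-1, 2-2 and 3-1, against 6.05, 19.3 and 14.5 in wild type 1-1, 2-1 and 2-2. The lowest wild type library lay within the knockout range. The log2 fold change was -0.92 with a standard error of 0.51 and a 95% interval of -2.12 to 0.29 (limma, adjusted p = 0.893). Without knockout 1-1 it was -0.44. Knockout 1-1 was the lowest and wild type 2-1 the highest library for Nts, and likewise for Vip, Grp, Npy1r, Cckbr and Adcyap1r1.

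Grp, the precursor of gastrin-releasing peptide, came next in size of change on the log2(value + 1) scale. By ratio of means, knockout over wild type, Cartpt (1.74) and Adcyap1 (1.58) lay further from 1 than Grp (0.723). The ratios of Cartpt and Adcyap1 rested on high values in knockout 2-2, 7.77 and 12.9. Without that library their log2 fold changes were -0.24 and -0.37. Grp had 19.2, 28.7 and 29.6 in the knockout libraries, against 36.6, 46.5 and 24.1 in the wild type libraries. Wild type 2-2 lay between the knockout values, and the log2 fold change was -0.43 (95% interval -1.04 to 0.18). Leaving out 1 library gave -0.22 without wild type 2-1 to -0.68 without wild type 2-2. Its relative Nmb, the precursor of neuromedin B, had 4.05, 4.73 and 4.56 in the knockout libraries, against 3.39, 2.91 and 6.48 in the wild type libraries. For Nmb, 20.6% of the exonic length is shared with Sec11a on the same strand, so its level is uncertain. The dynorphin precursor Pdyn had 3.92, 7.48 and 6.21 in the knockout libraries, against 5.14, 5.48 and 5.09 in the wild type libraries. Here the wild type libraries lay close together inside a wider knockout range. Pomc, the precursor of melanocortins and beta-endorphin, averaged 1.502 ± 0.27 in the knockout and 1.34 ± 0.25 in the wild type libraries (SD, n = 3 each).

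The scatter between knockout libraries was wide for precursors. Over the 17 tested genes of the precursor group, the median standard deviation of log2(value + 1) within a genotype was 0.371 in the knockout and 0.162 in the wild type libraries. Over all 14708 tested genes it was 0.126 in the knockout and 0.114 in the wild type libraries. The median of the granins was lower (0.0879 in the knockout and 0.108 in the wild type), and that of the 12 tested receptors lay between (0.220 and 0.137). Within the granins, Scg2 (0.337 in the knockout and 0.113 in the wild type) and Chgb (0.347 and 0.200) did scatter more in the knockout. Chga, Scg5 and Vgf did not. For the precursors, the median in the knockout was 0.169 without knockout 1-1, 0.207 without knockout 2-2 and 0.434 without knockout 3-1. Leaving out a wild type library gave 0.128 to 0.1495 in the wild type. The difference in scatter between genotypes was not tested.

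**Figure D2:**
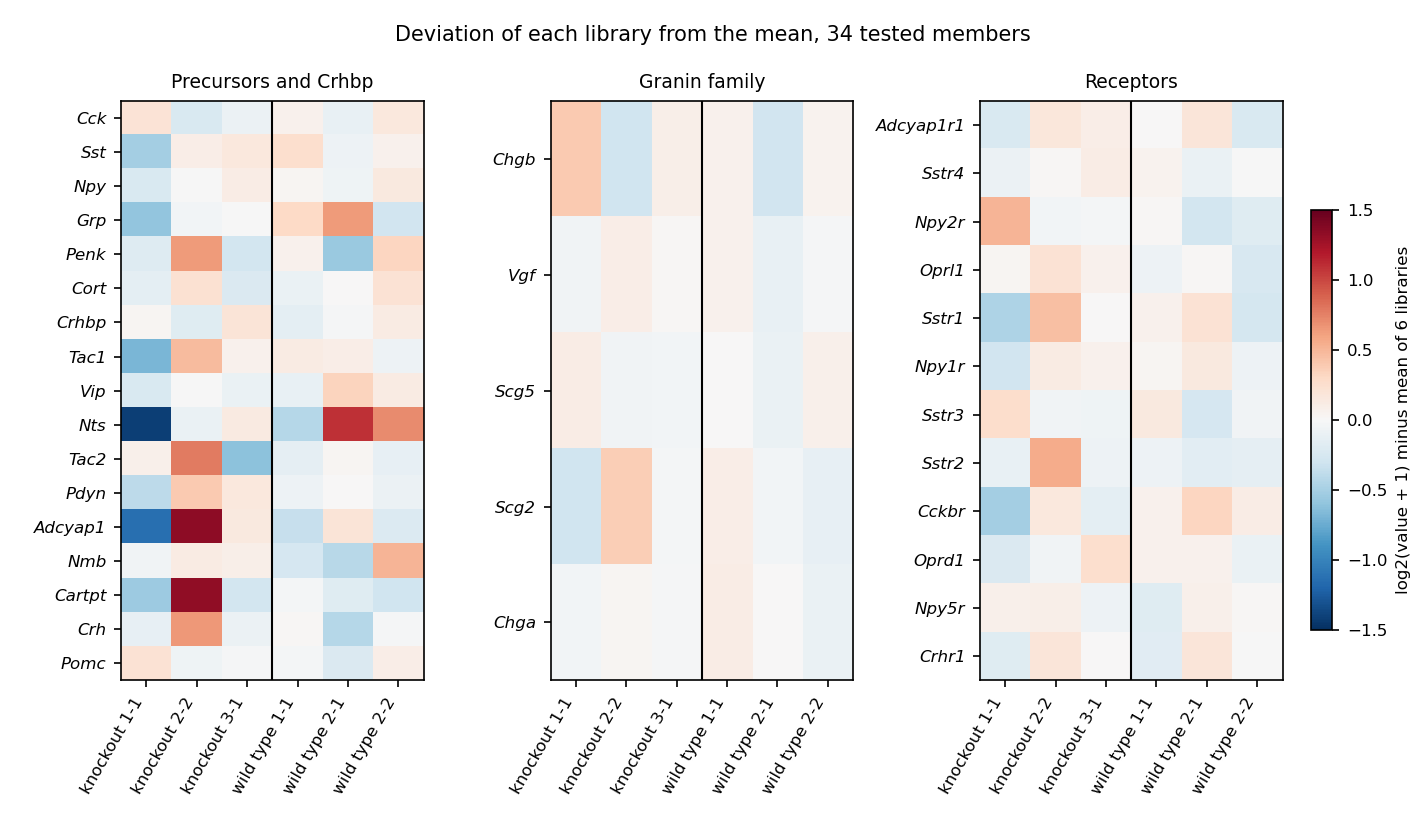
Deviation of each library from the mean of the 6 libraries on the log2(value + 1) scale, for the 34 tested genes, with knockout libraries left and wild type libraries right of the black line; red is above and blue below the mean. Knockout 2-2 is high for Adcyap1, Cartpt, Tac2, Crh and Sstr2, knockout 1-1 is low for Nts, Adcyap1 and Tac1, and the rows of Vgf, Scg5 and Chga are pale.

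Knockout 2-2 was more than 1.5 times above the highest of the other 5 libraries for 5 of the 34 genes (14.7%), against 1.06% of all tested genes. No peptide gene passed that mark in knockout 1-1 (0.68% of all tested genes), knockout 3-1 (0.381%), wild type 1-1 (0.354%), wild type 2-1 (0.537%) or wild type 2-2 (0.462%). The 5 genes were Adcyap1, Cartpt, Tac2, Crh and Sstr2. Adcyap1, the precursor of PACAP, had 1.502, 12.9 and 5.04 in knockout 1-1, 2-2 and 3-1, against 3.31, 5.23 and 3.76 in wild type 1-1, 2-1 and 2-2. Its lowest and its highest value were both in knockout libraries. Cartpt, the precursor of CART peptides, had 1.41, 7.77 and 1.89 in the knockout libraries, against 2.42, 2.07 and 1.85 in the wild type libraries. Without knockout 2-2, all its values lay between 1.41 and 2.42.

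Tac2, the neurokinin B precursor, had 7.36, 12.6 and 4.20 in the knockout libraries, against 6.21, 7.08 and 6.30 in the wild type libraries. Crh, which encodes corticotropin-releasing hormone, had 2.15, 4.40 and 2.23 in the knockout libraries, against 2.48, 1.56 and 2.38 in the wild type libraries. The somatostatin receptor gene Sstr2 had 6.01, 10.1 and 6.19 in the knockout libraries, against 6.17, 5.81 and 5.88 in the wild type libraries. The other knockout libraries lay within the wild type range for Crh, at or just above it for Sstr2 and on either side of it for Tac2. Leaving out knockout 2-2 changed the log2 fold change to -0.37 in place of 0.24 for Adcyap1, to -0.24 in place of 0.34 for Cartpt and to -0.19 in place of 0.16 for Tac2, so that the sign turned. For Crh it became 0.04 in place of 0.29, and for Sstr2 0.03 in place of 0.25.

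The same library held most of the signal of a pair of hypothalamic precursors that were too low to test. Trh, the precursor of thyrotropin-releasing hormone (chr6:92242061-92244650, minus strand), had 0.0635, 3.41 and 0.220 in knockout 1-1, 2-2 and 3-1, against 0, 0 and 0.0870 in wild type 1-1, 2-1 and 2-2. Avp, which encodes vasopressin (chr2:130580620-130582554, minus strand), had 0.223, 6.89 and 0.770 in the knockout libraries, against 0.501, 0.149 and 0.317 in the wild type libraries. Knockout 2-2 was 15.5 times above the next library for Trh and 8.94 times for Avp. At the depths given above, these values stand for at most 79.9 reads of Trh and 67.2 reads of Avp in knockout 2-2, and for at most 8.73 reads of either gene in any other library. In the authors' deposited table the log2 fold changes of knockout over wild type, 5.46 for Trh and 2.97 for Avp, include this library.

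Of the other precursors best known from the hypothalamus, Oxt, Hcrt and Pmch lay between 0 and 0.435 units in every library. Oxt, the oxytocin precursor and a neighbour of Avp in the genome (chr2:130576173-130577054, plus strand), had 0, 0.216 and 0 in the knockout libraries, against 0.117, 0.172 and 0.183 in the wild type libraries. Hcrt, the orexin precursor, was at 0 in knockout 1-1 and 3-1 and at 0.367 in knockout 2-2, against 0.103 to 0.155 in the wild type libraries. Pmch, the precursor of melanin-concentrating hormone, was at 0 in knockout 2-2 and had 0.388 units in knockout 1-1 and 0.435 in knockout 3-1, against 0.153 to 0.320 in the wild type libraries. Each of these 3 genes rested on at most 7.84 reads in any library, so no difference between libraries was detectable at this depth, and 58.1% of the exonic length of Pmch overlaps Parpbp on the opposite strand. Gal, the galanin precursor, had 0.341, 1.01 and 0.570 in the knockout libraries, against 0.715, 0.369 and 0.283 in the wild type libraries.

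**Figure D3:**
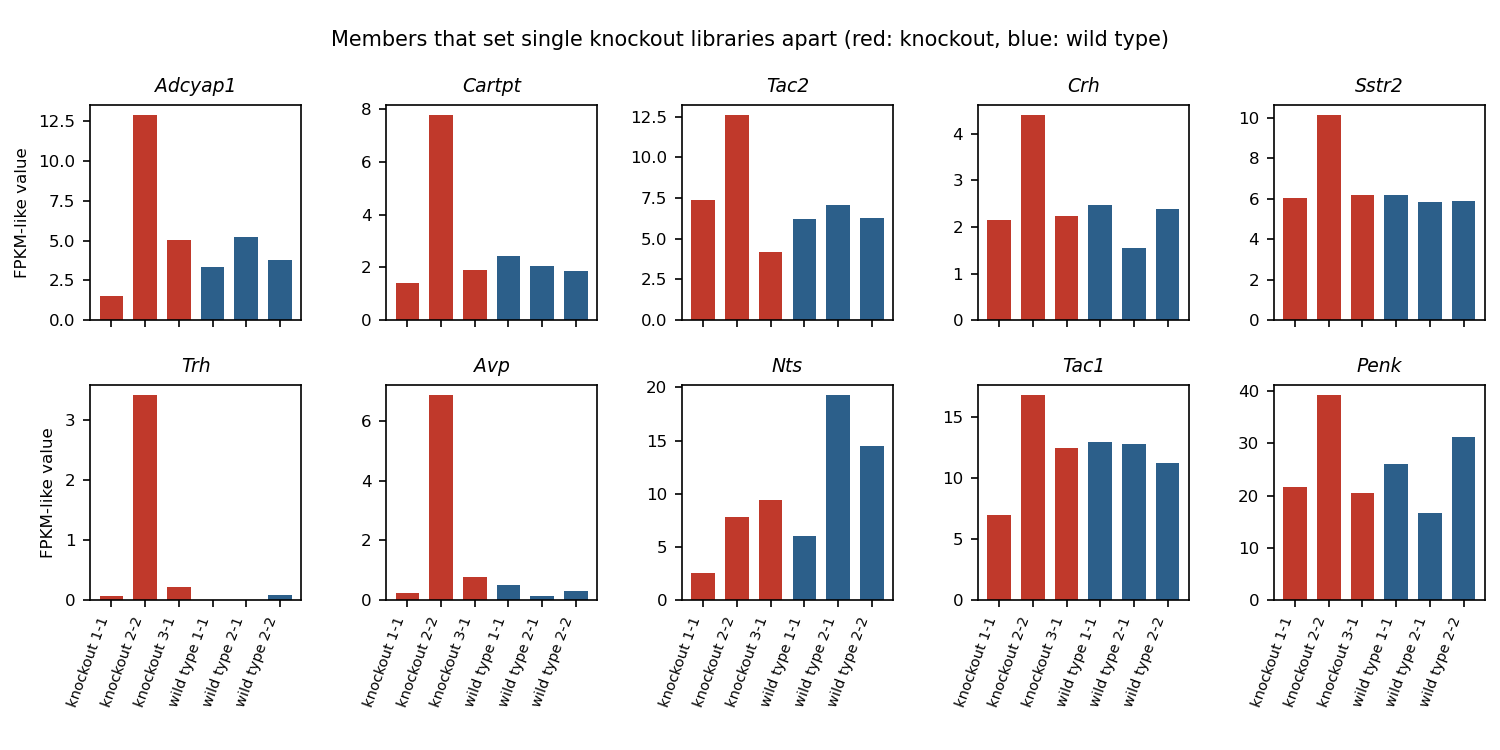
Values of 10 peptide genes in each library, as bars from 0, with the 3 knockout libraries in red left of the 3 wild type libraries in blue. Adcyap1, Cartpt, Tac2, Crh, Sstr2, Trh and Avp peak in knockout 2-2, Nts and Tac1 are lowest in knockout 1-1, and Penk scatters in both genotypes.

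On the low side, knockout 1-1 was more than 1.5 times below the lowest of the other 5 libraries for 3 of the 34 genes (8.82%), against 1.05% of all tested genes. No peptide gene passed that mark in knockout 2-2 (0.748% of all tested genes), knockout 3-1 (0.761%), wild type 1-1 (0.694%), wild type 2-1 (0.653%) or wild type 2-2 (0.612%). The 3 genes were Nts and Adcyap1, given above, and Tac1. Tac1, the precursor of substance P, had 6.98, 16.8 and 12.5 in the knockout libraries, against 13.0, 12.7 and 11.2 in the wild type libraries. The wild type values lay close together between a low and a high knockout library. Its log2 fold change of -0.10 became 0.22 without knockout 1-1 and -0.36 without knockout 2-2, and that of Adcyap1 became 0.86 without knockout 1-1.

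Markers of cell types and regions also differed between libraries, and in part between genotypes. The sums of the CA3 and CA2, hypothalamus and choroid plexus lists were higher in every knockout than in every wild type library. Differences between the sums were not tested. Knockout 1-1 had the highest sum over 10 markers of CA3 and CA2 pyramidal cells, 252, with 162 and 172 in knockout 2-2 and 3-1, against 158, 135 and 153 in wild type 1-1, 2-1 and 2-2. Rgs14, Cpne4 and Elavl2 were the most abundant of these, and Rgs14 had 82.4, 45.1 and 45.3 in the knockout libraries, against 51.2, 38.9 and 46.7 in the wild type libraries. The receptor gene Npy2r belongs to the same list, was left out of the sum and was also highest in knockout 1-1. The sum over 11 dentate granule cell markers was 144, 217 and 222 in knockout 1-1, 2-2 and 3-1, against 212, 217 and 183 in the wild type libraries, so that knockout 1-1 was lowest. Of the leading dentate markers, Calb1, C1ql2, Stxbp6 and Prox1 were all lowest in knockout 1-1, with 35.7 for Calb1 against 46.1 to 64.7 in the other 5 libraries. The sum over 5 blood markers, led by the globin genes Hbb-bs, Hba-a2, Hba-a1 and Hbb-bt, was 441 in knockout 1-1, 215 and 228 in knockout 2-2 and 3-1, and 295, 159 and 222 in the wild type libraries. The part of these cell types in the low peptide values of knockout 1-1 was not tested.

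In knockout 2-2, 6 of 10 markers of hypothalamic neurons had their highest value, each at under 2 units. Over all tested genes that share was 19.1%, but only 2 of the 10 markers were high enough to test. Of these markers, 3, 2 and 3 were at 0 in knockout 1-1, 2-2 and 3-1, against 6, 6 and 4 in wild type 1-1, 2-1 and 2-2. Their sum was 3.11, 4.16 and 3.04 in the knockout libraries, against 2.23, 1.98 and 2.55 in the wild type libraries. Of its most abundant genes, Hcrtr2 had 1.45, 1.57 and 1.09 in the knockout libraries, against 1.02, 0.990 and 1.02 in the wild type libraries, and Hdc was lowest in knockout 2-2, at 0.561. Irs4 had 0.112, 1.00 and 0.0682 in the knockout libraries, against 0.120, 0.0584 and 0.0661 in the wild type libraries, and Nkx2-1 had 0.364 in knockout 2-2 and 0.0386 to 0.215 in the other 5. Otp, a transcription factor of hypothalamic neurons, had 0.0153, 0.366 and 0.0209 in the knockout libraries and was at 0 in all wild type libraries, and Sim1, another, had 0, 0.121 and 0.00773 in the knockout libraries and was at 0 in all wild type libraries. In contrast, Hmx3 and Six6 of the same list were at 0 in all 6 libraries. The part of hypothalamic cells in the Trh, Avp and Cartpt values was not tested.

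**Figure D4:**
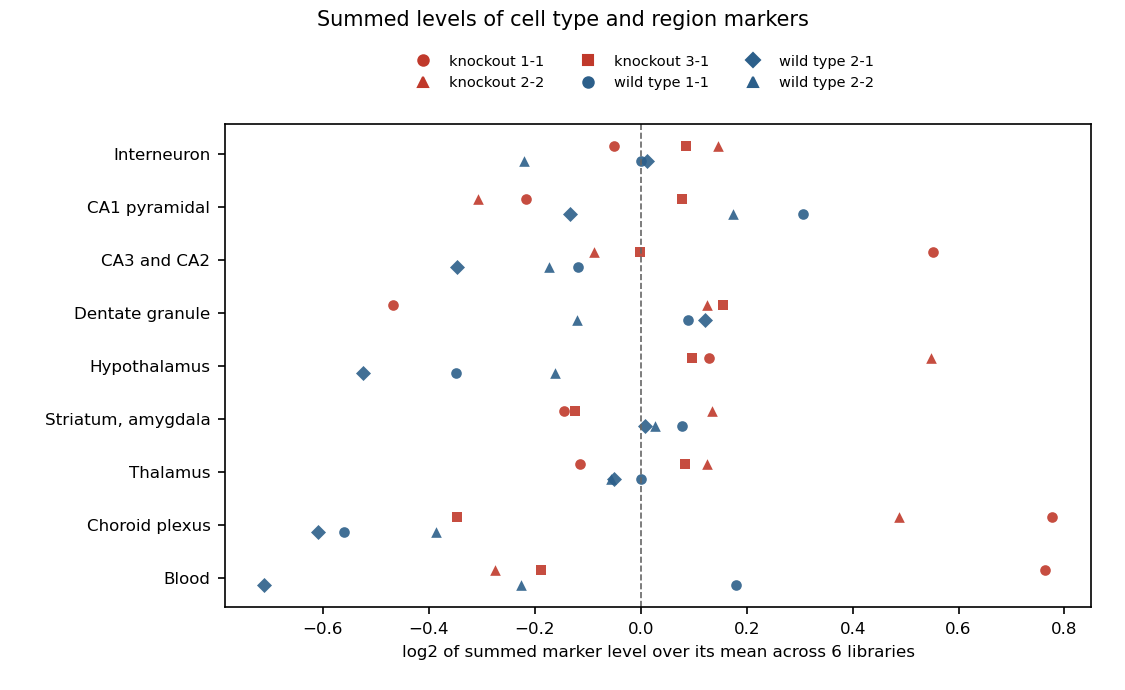
Summed level of each marker list in each library, as log2 of the ratio to its mean over the 6 libraries, with knockout symbols drawn above wild type symbols on each row and Npy2r left out of the CA3 and CA2 list. Knockout 1-1 is highest for CA3 and CA2, choroid plexus and blood, and lowest for dentate granule, striatum and amygdala, and thalamus markers. Knockout 2-2 is highest for hypothalamus, interneuron, striatum and amygdala, and thalamus markers, and lowest for CA1 markers.

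The other lists concern cells of the hippocampus and of its surroundings. Interneuron markers, 14 genes led by Gad1, Pvalb, Gad2 and Slc32a1, summed to 328, 376 and 360.04 in the knockout libraries, against 339, 342 and 291 in the wild type libraries. Gad1, which encodes an enzyme that makes the transmitter GABA, had 109, 124 and 120 in the knockout libraries, against 105, 111 and 97.1 in the wild type libraries. In knockout 1-1, where Sst was lowest, the interneuron sum lay within the range of the other 5 libraries. The 8 CA1 markers, led by Mpped1, Wfs1, Fibcd1 and Pou3f1, summed to 194, 182 and 238 in the knockout libraries, against 278, 205 and 254 in the wild type libraries. The 9 markers of striatum and amygdala, led by Ppp1r1b, Rgs9, Rxrg and Drd1, summed to 38.4, 46.6 and 39.0 in the knockout libraries, against 44.8, 42.7 and 43.3 in the wild type libraries. The 9 thalamic markers, led by Prkcd, Slc17a6, Plekhg1 and Lhx9, summed to 34.2, 40.4 and 39.3 in the knockout libraries, against 37.0, 35.8 and 35.6 in the wild type libraries. Knockout 2-2 had the highest sum for interneuron, striatal and amygdalar, and thalamic markers. It was the highest library for 7 of 14, 4 of 9 and 1 of 9 of their single genes, against 19.1% of all tested genes. The 9 markers of choroid plexus, led by Ttr, Kl, Sostdc1 and Folr1, summed to 23.2, 19.003 and 10.6 in the knockout libraries, against 9.18, 8.88 and 10.4 in the wild type libraries. Ttr, which encodes transthyretin, had 12.2, 10.7 and 2.74 in the knockout libraries, against 1.68, 1.41 and 2.57 in the wild type libraries. Ttr was higher in every knockout than in every wild type library, and it did not pass the test (limma, adjusted p = 0.832). No gene of any marker list passed it. Tested markers with a fold change above 0 were 12 of 14 for interneurons, 1 of 8 for CA1 and 6 of 10 for dentate granule cells. For CA3 and CA2 they were 10 of 10, with Npy2r among them. They were 1 of 2 for hypothalamus, 1 of 5 for striatum and amygdala, 7 of 9 for thalamus, 4 of 4 for choroid plexus and 5 of 5 for blood. Over all 14708 tested genes, 7178 lay above 0. The part of these cells in the peptide values was not tested.

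Neuronal activity raises the transcription of several peptide genes, so a list of 20 activity-induced genes was read beside them. It summed to 364, 349 and 337 in the knockout libraries, against 423, 343 and 413 in the wild type libraries, with 6 genes higher, 14 lower and none called. Of its most abundant genes, Arc had 45.5, 30.3 and 29.5 in the knockout libraries, against 54.8, 39.1 and 50.1 in the wild type libraries. Homer1 had 45.0, 44.8 and 46.7 in the knockout libraries, against 41.5, 40.1 and 40.7 in the wild type libraries. Egr1 averaged 39.1 ± 2.22 in the knockout and 42.8 ± 6.48 in the wild type libraries, and Junb averaged 37.0 ± 2.66 in the knockout and 44.7 ± 4.93 in the wild type libraries (SD, n = 3 each). Knockout 2-2 was the highest library for 4 of the 20 genes, close to its share over all tested genes (19.1%). The 4 were Fos, Egr3, Nptx2 and Inhba, and not Arc, Homer1, Egr1 or Junb. Fos had 5.72, 8.28 and 4.54 in the knockout libraries, against 7.29, 8.12 and 7.43 in the wild type libraries. Fos, Egr3, Nptx2 and Inhba were picked after their values were seen, and the part of activity in the peptide values was not tested.

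Of the 3 groups by role, the granin family had the smallest median scatter within a genotype, though Scg2 and Chgb scattered more in the knockout, as given above. Chgb, which encodes chromogranin B, had 243, 150 and 197 in the knockout libraries, against 194, 152 and 192 in the wild type libraries. Vgf, the precursor of several peptides induced by nerve growth factor, averaged 141 ± 7.53 in the knockout and 137 ± 8.32 in the wild type libraries (SD, n = 3 each). Scg5, which encodes the chaperone of the prohormone convertase PC2, averaged 122 ± 7.64 in the knockout and 121 ± 7.87 in the wild type libraries. Scg2, which encodes secretogranin II, had 76.1, 122 and 92.1 in the knockout libraries, against 101, 91.0 and 86.3 in the wild type libraries. Chga, which encodes chromogranin A, averaged 70.1 ± 1.53 in the knockout and 71.0 ± 5.40 in the wild type libraries. The log2 fold changes of the 5 genes ran from -0.02 to 0.12, with 4 above 0 and a median of 0.04. The 95% intervals of Vgf (-0.12 to 0.21), Scg5 (-0.16 to 0.18) and Chga (-0.18 to 0.15) were the narrowest of the family, and those of Scg2 (-0.35 to 0.42) and Chgb (-0.32 to 0.55) were wider. Scg2 was lowest in knockout 1-1 and highest in knockout 2-2, whereas Chgb was highest in knockout 1-1 and lowest in knockout 2-2.

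Among receptors, Oprl1 (chr2:181715016-181720985, plus strand) was the only tested gene whose genotypes did not overlap. It encodes the receptor of nociceptin and had 16.9, 19.4 and 17.4 in knockout 1-1, 2-2 and 3-1, against 15.6, 16.8 and 13.9 in wild type 1-1, 2-1 and 2-2. The gap between the lowest knockout and the highest wild type library was narrow. The log2 fold change was 0.20 with a standard error of 0.09 and a 95% interval of -0.01 to 0.42 (limma, adjusted p = 0.878). Groups that did not overlap, in either direction, were found for 1 of the 34 genes (2.94%), against 11.4% of all tested genes, 5.7% with the knockout higher and 5.67% with it lower. After scaling the libraries to a common total without mitochondrial genes, the Oprl1 values overlapped. Pnoc, which encodes the precursor of nociceptin, averaged 5.39 ± 0.55 in the knockout and 5.39 ± 0.51 in the wild type libraries (SD, n = 3 each).

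The other opioid receptors were lower. Oprd1, the delta receptor, averaged 4.04 ± 0.85 in the knockout and 4.06 ± 0.32 in the wild type libraries (SD, n = 3 each). Oprm1, the mu receptor, had 0.594, 1.89 and 0.605 in the knockout libraries, against 1.33, 0.757 and 0.613 in the wild type libraries. It was again highest in knockout 2-2 and too low to test. The order Oprl1, Oprd1, Oprm1 and Oprk1 by mean level was the same in both genotypes, with no overlap of library values between Oprl1 and Oprd1 or between Oprd1 and Oprm1, while Oprm1 and Oprk1 overlapped in range.

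Receptors of neuropeptide Y differed in which library was high. Npy2r, a presynaptic receptor, had a log2 fold change of 0.29 (95% interval -0.09 to 0.68), and without knockout 1-1 it was 0.11. Npy1r, the mainly postsynaptic receptor, had 8.58, 11.8 and 11.2 in the knockout libraries, against 11.0, 12.02 and 10.1 in the wild type libraries. Knockout 1-1 was the lowest library for Npy1r and the highest for Npy2r. Npy5r averaged 3.56 ± 0.28 in the knockout and 3.39 ± 0.41 in the wild type libraries (SD, n = 3 each).

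Somatostatin receptors led with Sstr4, at 24.7 ± 1.73 in the knockout and 24.1 ± 1.33 in the wild type libraries (SD, n = 3 each). Sstr1 had 7.83, 15.6 and 11.3 in the knockout libraries, against 11.7, 13.1 and 9.12 in the wild type libraries. Its extremes were knockout 1-1 and knockout 2-2, and its log2 fold change was -0.0046 (95% interval -0.57 to 0.56). Sstr3, a receptor of neuronal cilia, had 10.6, 8.35 and 8.25 in the knockout libraries, against 9.77, 7.17 and 8.38 in the wild type libraries. Cckbr, the main cholecystokinin receptor of the brain, had 2.58, 4.70 and 3.63 in the knockout libraries, against 4.37, 5.42 and 4.52 in the wild type libraries. Only knockout 2-2 reached the wild type range, and the log2 fold change was -0.34 (95% interval -0.77 to 0.09), with -0.16 when knockout 1-1 was left out and -0.50 when knockout 2-2 was. Crhr1, the receptor of corticotropin-releasing hormone, averaged 3.42 ± 0.56 in the knockout and 3.41 ± 0.54 in the wild type libraries. The PACAP receptor Adcyap1r1 was the most abundant receptor, at 45.3 ± 6.60 in the knockout and 44.5 ± 6.32 in the wild type libraries (SD, n = 3 each).

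**Figure D5:**
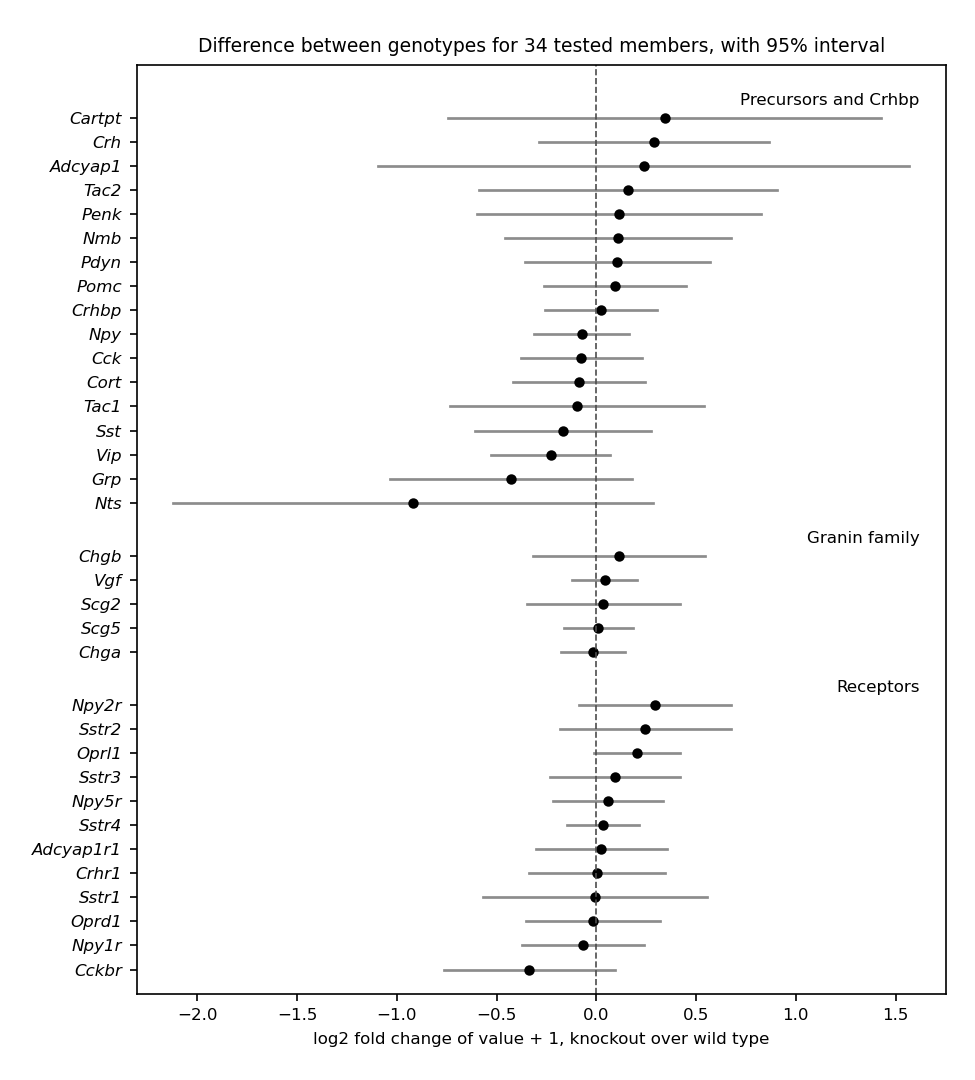
Log2 fold change of value + 1, knockout over wild type, for the 34 tested genes with the 95% interval of the limma fit, in 3 groups by role. All 34 intervals include 0, and the widest are those of Adcyap1, Nts and Cartpt.

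The machinery that makes and releases peptides gave no call. Of 28 genes for processing and dense-core vesicles, 26 were tested, 13 with a fold change above 0 and 13 below. Cpe, the carboxypeptidase that trims peptide ends, averaged 1503 ± 179 in the knockout and 1416 ± 22.2 in the wild type libraries (SD, n = 3 each). Rab3a, a GTPase of secretory vesicles, averaged 395 ± 7.92 in the knockout and 402 ± 6.62 in the wild type libraries. Pcsk1n, which encodes an inhibitor of the convertase PC1/3, averaged 274 ± 6.43 in the knockout and 296 ± 23.6 in the wild type libraries, and Ptprn, which encodes a dense-core vesicle protein, averaged 167 ± 6.24 in the knockout and 158 ± 16.4 in the wild type libraries.

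Of 12 peptidase genes, 11 were tested and 1 was called. Ide, which encodes the insulin-degrading enzyme, had 24.1, 22.0 and 23.99 in the knockout libraries, against 8.78, 11.7 and 11.0 in the wild type libraries. It was higher in all 3 knockout libraries, with a log2 fold change of 1.09 and a standard error of 0.11 (limma, adjusted p = 0.0288). The fold change was 0.98 to 1.17 under 12 alternative settings, and the adjusted p ran from 0.0237 to 0.411, so that the call was lost in 8 of them, among them the fits without knockout 1-1, 2-2 or 3-1 and without wild type 2-1 or 2-2. Npepps, a cytosolic aminopeptidase, averaged 47.6 ± 1.24 in the knockout and 45.7 ± 0.37 in the wild type libraries, and Thop1, which cuts neurotensin among other peptides, averaged 18.8 ± 0.96 in the knockout and 18.1 ± 1.31 in the wild type libraries (SD, n = 3 each). Ece1, the endothelin-converting enzyme, had 13.9, 10.2 and 23.3 in the knockout libraries, against 29.6, 17.7 and 21.2 in the wild type libraries.

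Further precursor genes gave no call. Of 40 further precursor genes, 10 were tested, 5 on each side of 0. Nppc, which encodes C-type natriuretic peptide, had 2.68, 1.94 and 2.46 in the knockout libraries, against 3.88, 4.43 and 3.52 in the wild type libraries. Its genotypes did not overlap, with a log2 fold change of -0.56 and a standard error of 0.13, but it missed the threshold (limma, adjusted p = 0.649). Nucb2, the nesfatin precursor, averaged 9.80 ± 1.65 in the knockout and 10.2 ± 1.504 in the wild type libraries, and Apln, the apelin precursor, averaged 5.36 ± 0.84 in the knockout and 4.67 ± 0.76 in the wild type libraries (SD, n = 3 each). Some precursors were listed above 0 in a single genotype, all under 1 unit. Kiss1 had 0.764 and 0.419 in knockout 2-2 and 3-1, Ucn had 0.208 in knockout 3-1, Ucn2 had 0.203 and 0.132 in knockout 1-1 and 2-2, and Ucn3 had 0.289 in knockout 2-2, with 0 in all wild type libraries. Tac4 at 0.0990 and Nps at 0.177 in wild type 2-2, and Nms at 0.0493 in wild type 1-1, were at 0 in all knockout libraries.

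Of 37 further receptor genes, 18 were tested, 11 above 0 and 7 below, with none called. Sort1, a sorting receptor that binds neurotensin, averaged 115 ± 11.5 in the knockout and 112 ± 7.42 in the wild type libraries, and Ntsr2, a neurotensin receptor of astrocytes, averaged 92.2 ± 10.6 in the knockout and 88.2 ± 4.57 in the wild type libraries (SD, n = 3 each). Npr2, the receptor of C-type natriuretic peptide, averaged 21.5 ± 2.22 in the knockout and 22.0 ± 1.94 in the wild type libraries, and Ednrb, an endothelin receptor, averaged 13.4 ± 1.69 in the knockout and 12.6 ± 0.46 in the wild type libraries. Trhr, the receptor of the Trh peptide, was picked after its values were seen: it had 1.48, 5.47 and 2.32 in the knockout libraries, against 2.72, 2.81 and 1.39 in the wild type libraries, with knockout 2-2 highest as for Trh itself. Npffr2 had 0.174 in knockout 2-2 and was at 0 in the other 5 libraries, and Cckar had 0.0372 in wild type 2-1 and was at 0 in the other 5.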

How the data were processed

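Poly(A) RNA of hippocampus was sequenced, and the authors deposited 1 value per gene and library with their own log2 fold changes, p-values and adjusted p-values. The deposited table does not name the unit, and its values were read as FPKM because they do not sum to a common total and the step between low values shrinks with gene length. Per the submitters' processing notes, the tools and build listed, with no role, are HISAT2 2.1.0, HTSeq, bcl2fastq and mm10, whereas the series' design text speaks of BWA with ANOVA and of TopHat with Cufflinks. The pipeline behind the table, and whether strand was used, was not given in the sources used here. Per the labels' protocols, RNA was extracted with Trizol, primed at random, and fragments of 250 to 300 bp were preferred.

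The 14708 genes at 1 unit or above in 3 or more libraries entered a genotype model of log2(value + 1), fitted by limma 3.58.1 (R 4.3.3) with two-sided tests, a variance trend along mean level and Benjamini-Hochberg adjustment over all 14708 genes and a threshold of 0.05. Fold changes are on the log2(value + 1) scale, which understates the change of low genes. The fit was tested on simulated data. Alternatives were a pseudocount of 0.1, no filter, no trend, other scalings, a replicate block and leaving out each library. Depth was read from genes of at most 160 nt of exonic sequence, where 91.5% to 98.6% of values above 0 lay within 0.2% of a step of 1 to 5 reads divided by a whole effective length of 15 at most. Positions, exon overlaps and 3' UTRs came from GENCODE M21 (GRCm38, the assembly of mm10), in which all 54393 identifiers were found, and microRNA and promoter sequences from RefSeq (GRCm38.p6), with Python 3.11.15. The genes and gene lists were chosen with earlier results of these data known. Named genes are all 42 members, the targeted locus, the 4 most abundant genes of each list, called list genes, and list genes above 0 in a single genotype. Outside these rules, Trhr, Fos, Egr3, Nptx2 and Inhba were named after their values were seen. Hmx3 and Six6 were named because they were at 0 in every library. A gene of the interneuron list is not reported here, and the sum of that list leaves it out.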

Additional observations from a re-analysis of the deposited data

How the results depend on the processing

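The member call count was 0 under all 12 alternatives. Of these, the replicate block could hardly call any gene. Only codes 1-1 and 2-2 occur in both genotypes, so wild type 2-1 and knockout 3-1 did not enter its genotype difference. Genes called over the whole table numbered 16, 4 with no filter on low values, 0 with the replicate block, and 4 to 17 when a library was left out (6 without knockout 2-2, 4 without wild type 2-1, 6 without wild type 2-2). Members whose groups did not overlap numbered 1, 0 with a common total without mitochondrial genes, and 1 to 5 when a library was left out, where 19.6% to 22.6% of all tested genes did not overlap. Called genes in the pathway lists (Ide) numbered 1, 0 with no filter, 0 with no trend, 0 with the replicate block, and 0 to 1 when a library was left out. Deviations of same-coded libraries from their genotype means correlated at -0.0986 for code 1-1 and -0.0606 for code 2-2 over tested genes. Pairs of different codes gave -0.0568 to 0.110. With so few shared codes and 3 libraries a genotype, these values cannot tell whether the codes pair the libraries.

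The sign of the log2 fold change turned with the common total for Chga (0.0102), Oprd1 (0.0037) and Sstr1 (0.0202). With the replicate block it turned for Chgb (-0.0141), Crhbp (-0.0695), Nmb (-0.0918), Scg5 (-0.0169), Sstr4 (-0.0563), Vgf (-0.0048) and Sstr1 (0.0967). The cause was not tested. A pseudocount of 0.1, no filter, no trend and median-of-ratios scaling turned no sign. Leaving out 1 library turned it in 24 of 34 members, with ranges of -0.37 to 0.86 for Adcyap1, -0.0792 to 0.15 for Adcyap1r1, -0.24 to 0.70 for Cartpt, -0.20 to 0.0205 for Cck, -0.0706 to 0.0377 for Chga, -0.0509 to 0.30 for Chgb, -0.0673 to 0.12 for Crhbp, -0.0875 to 0.0953 for Crhr1, -0.0754 to 0.39 for Nmb, -0.15 to 0.0186 for Npy, -0.15 to 0.0613 for Npy1r, -0.0182 to 0.11 for Npy5r, -0.15 to 0.0883 for Oprd1, -0.0649 to 0.33 for Pdyn, -0.18 to 0.30 for Penk, -0.14 to 0.19 for Scg2, -0.0412 to 0.0516 for Scg5, -0.29 to 0.0466 for Sst, -0.23 to 0.23 for Sstr1, -0.0123 to 0.19 for Sstr3, -0.0146 to 0.0829 for Sstr4, -0.36 to 0.22 for Tac1, -0.19 to 0.50 for Tac2 and -0.0036 to 0.0834 for Vgf. The other 10 kept their sign but moved, with ranges of -0.50 to -0.16 for Cckbr, -0.22 to -0.0004 for Cort, 0.0366 to 0.42 for Crh, -0.68 to -0.22 for Grp, 0.11 to 0.38 for Npy2r, -1.36 to -0.44 for Nts, 0.14 to 0.26 for Oprl1, 0.0072 to 0.17 for Pomc, 0.0305 to 0.36 for Sstr2 and -0.34 to -0.12 for Vip. With 3 libraries a genotype, depth limits Trh, Avp, Oxt, Hcrt and Pmch most.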
